A study of Mus musculus with 20 samples.

Results

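The 10 genes Postn, Lum, Dcn, Fap, Pdgfra, Sparc, Fn1, Lox, Tnc and Thbs1, commonly used to mark cancer-associated fibroblasts, were followed through a mouse model of colorectal liver metastasis (CRLM). The list was defined by gene name, with earlier results of these data known, and all 10 were found in both count tables among 54532 annotated genes. The RNA-sequencing data were from wild-type C57BL/6 mice that received 1000000 MC38 cells, a colon adenocarcinoma line of the same strain, through the spleen and portal vein. The labels give male sex for the tissue samples whereas the methods name female mice aged 6 to 8 weeks; the labels give no age. Normal liver (con) was taken at day 0 after normal saline. Tumor-bearing tissue was low-content (Lt, day 9), medium-content (Mt3, day 9; Mt2 and Mt1, day 11) or high-content (Ht, day 12), with 2 samples in each of these groups, and 1 library came from tumor-free liver remote from the tumor (L-con, day 12). In Ht, 1 of the 2 samples is the sum of 2 libraries. F4/80+ and CD11b+ cells, with 3 libraries each, were selected by magnetic beads from medium-content tumors at day 11 (F4/80+TAM and CD11b+TAM). All groups but con had received the MC38 cells. Each tissue piece was bulk tissue in which liver and tumor were mixed, so that transcripts of host fibroblasts and of MC38 cells cannot be told apart, nor can fewer cells of a type and less RNA per cell.

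Fibroblasts in a tumor lay down and remodel the extracellular matrix. In normal liver, matrix is made by a small population of hepatic stellate cells and portal fibroblasts, and hepatocytes secrete plasma fibronectin. Among the genes followed here, Pdgfra encodes a receptor for platelet-derived growth factors and Fap encodes a cell-surface serine protease. Lum and Dcn encode the proteoglycans lumican and decorin, which bind collagen fibrils, and Lox encodes an enzyme that cross-links collagen and elastin. Fn1 encodes fibronectin, and Postn, Tnc, Sparc and Thbs1 encode the matricellular proteins periostin, tenascin-C, SPARC and thrombospondin-1, which tune how cells hold on to the matrix.

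All 10 are protein-coding genes on the GRCm38 build of the count table, and Dcn (chr10:97479609-97518143) and Lum (chr10:97565128-97572703) lie close together. To show the regulatory sequence next to genes that moved together, the 250 bases before the start were read for the 3 members with a RefSeq window (GRCm38.p6) whose start lay within 41 bases of the start in the count table. Capitals mark short motifs found by their letters on either strand, none of them overlapping another.
Postn, chr3:54360857-54361106, plus strand: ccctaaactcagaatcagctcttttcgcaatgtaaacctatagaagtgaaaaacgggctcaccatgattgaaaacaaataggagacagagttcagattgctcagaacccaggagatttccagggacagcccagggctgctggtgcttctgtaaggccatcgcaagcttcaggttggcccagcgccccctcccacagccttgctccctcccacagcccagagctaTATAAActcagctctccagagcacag
Tnc, chr4:64047016-64047265, minus strand: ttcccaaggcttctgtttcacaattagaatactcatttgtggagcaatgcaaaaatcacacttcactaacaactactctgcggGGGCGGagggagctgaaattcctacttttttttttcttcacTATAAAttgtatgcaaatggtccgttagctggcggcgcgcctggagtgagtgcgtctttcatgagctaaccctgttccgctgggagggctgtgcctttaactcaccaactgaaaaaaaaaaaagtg
Pdgfra, chr5:75152001-75152250, plus strand: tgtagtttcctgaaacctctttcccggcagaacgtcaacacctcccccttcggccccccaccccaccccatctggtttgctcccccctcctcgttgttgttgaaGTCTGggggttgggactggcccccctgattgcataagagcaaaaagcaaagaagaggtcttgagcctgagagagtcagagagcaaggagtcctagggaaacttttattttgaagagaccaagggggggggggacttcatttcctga
The letters searched were TATAAA (the TATA box), CCAAT (the CCAAT box), GGGCGG (the GC box), TGACTCA (an AP-1 element) and CAGAC (a Smad element). TATAAA was 26 bases before the Postn start and 126 bases before the Tnc start, and 12.4% of 32851 mouse promoter windows of this length held it. Tnc also held GGGCGG, present in 32.7% of windows, and Pdgfra held CAGAC on the opposite strand, present in 42.2%. CCAAT, in 33.8% of windows, and TGACTCA, in 4.46%, were in none of the 3. No motif was shared by all 3 windows.

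Levels were first compared per length, as FPKM, the level scaled to library size over all 19 samples and divided by gene length in kilobases. In con, Fn1 was highest at 155 ± 1.8 FPKM (SD, n = 2), followed by Dcn at 37.2 ± 6.45 and Sparc at 28.1 ± 5.96. Thbs1, at 0.303 ± 0.127 FPKM, and Tnc, at 0.269 ± 0.00326, overlapped, whereas each other neighbor in the order was separated in this pair of livers. Fap was almost silent, with 1 read in one con library and 0 in the other, which allows a level of up to 3 reads or 0.275 CPM (reads per scaled library size). In Ht the order differed. Sparc led at 323 ± 32.4 FPKM, before Fn1 at 112 ± 0.445 and Thbs1 at 82.1 ± 1.58, and only Tnc and Lox overlapped as neighbors. Thbs1 thus went from the seventh to the third place of the order, and Fap was lowest in both groups.

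**Figure D1:**
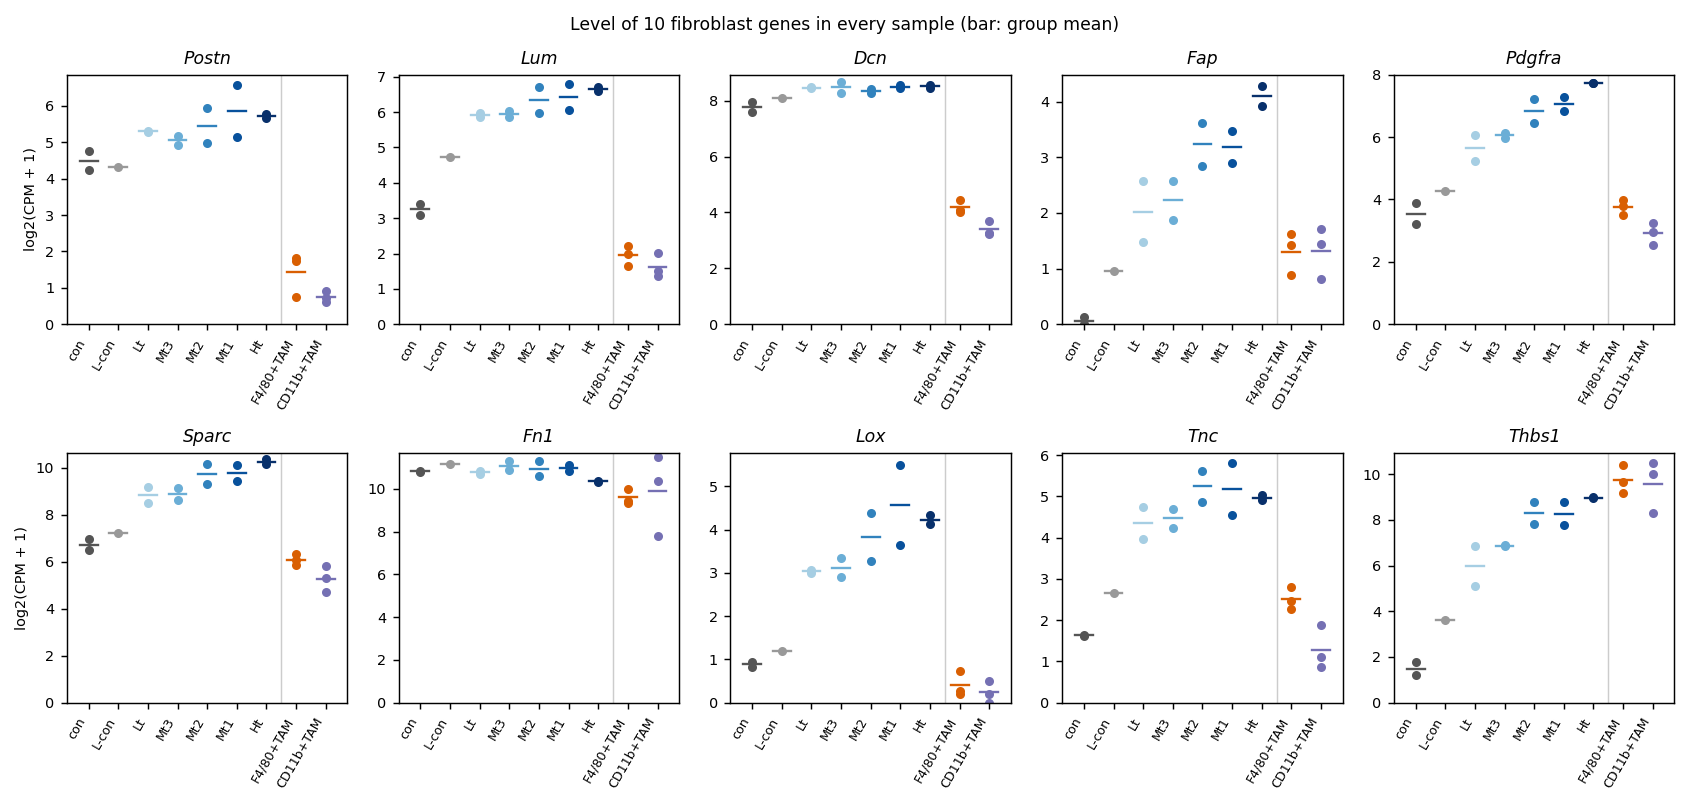
Level of each gene as log2(CPM + 1) in 19 samples, by group; each point is 1 sample and each bar the mean of the group's log2 values, with tissue left and sorted cells right of the grey line. On this axis Fap, Pdgfra, Sparc and Thbs1 lie higher in Ht than in con by the widest margins, and Dcn and Fn1 differ least between con and Ht. In the fit Lox (4.36), Tnc (3.83) and Lum (3.53) changed more than Sparc (3.50). Thbs1 and Fn1 have the highest levels in sorted cells.

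The first step, from normal liver to low-content metastasis, asked what early tumor growth brings to the tissue. Of the 10 genes, 7 rose (Lum, Fap, Pdgfra, Sparc, Lox, Tnc and Thbs1), none fell, and their median log2 fold change was 2.51 beside 0.10 over all 17187 genes tested. The background was 12.4% of genes called higher and 0.256% called lower (edgeR's quasi-likelihood test; a call needed an adjusted p no higher than 0.05 and a log2 change of 1 or more in size).

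Thbs1 measured 2.38 and 1.29 CPM in con and 33.1 and 115 CPM in Lt. Both Lt samples were above both con samples, although they differed 3.49-fold from each other. Its log2 fold change was 5.34 ± 0.72 (SE; edgeR adjusted p = 0.00228). Fap reached 1.79 and 4.94 CPM in Lt, and the mean of these, 3.365 CPM, was 12.2-fold the con floor of 0.275 CPM (edgeR adjusted p = 0.00565). Tnc rose from 2.11 and 2.07 CPM to 14.6 and 25.6 CPM, by 3.27 ± 0.52 on the log2 scale (edgeR adjusted p = 0.0039). The cross-linking enzyme Lox went from 0.916 and 0.776 CPM to 7.01 and 7.34 CPM, a log2 fold change of 3.08 ± 0.73 (edgeR adjusted p = 0.0215). Its con values rest on 10 and 9 reads.

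Of the proteoglycans, Lum rose from 7.51 and 9.66 CPM to 56.7 and 61.9 CPM, by 2.79 ± 0.31 (edgeR adjusted p = 0.00159). Dcn, on the same chromosome, measured 244 and 191 CPM in con and 354 and 347 CPM in Lt. The Dcn groups did not overlap, but its log2 fold change of 0.69 ± 0.22 was not called (edgeR adjusted p = 0.0721). The receptor Pdgfra rose from 13.9 and 8.19 CPM to 37.0 and 66.0 CPM, and Sparc from 123 and 90.6 CPM to 363 and 582 CPM. Their log2 fold changes were 2.22 ± 0.38 and 2.15 ± 0.42 (edgeR adjusted p = 0.00567 and 0.0097). Postn had 25.9 and 17.9 CPM in con and 38.1 and 38.6 CPM in Lt, and its change of 0.81 ± 0.45 was not called (edgeR adjusted p = 0.264). Fn1, the most abundant of them in con, had 1792 and 1821 CPM in con and 1853 and 1685 CPM in Lt, a change of -0.03 ± 0.35 that became 0.26 when only total counts were scaled (edgeR adjusted p = 0.966 and 0.563).

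The step is sensitive to single livers. Without con replicate 2, 2 of the 10 genes were called, and without Lt replicate 2, 5. Over all genes the number called higher dropped as well, from 2133 to 720 and to 914. The hepatocyte score, the mean log2(CPM + 1) of 8 hepatocyte genes, was 12.8 and 13.1 in con and 12.5 and 13.2 in Lt, with none of the 8 called. Myeloid genes rose in the same step, namely 4 of 7 macrophage, 3 of 4 monocyte and 4 of 5 neutrophil genes, and so did Lgals7, Stra6 and Flnc, 3 of the 4 genes earlier named as tumor-specific; the fourth, Grem1, is counted here with the fibroblast genes and rose as well. Msln, 1 of 5 mesothelial genes, rose by 5.86 ± 0.61 on the log2 scale, Epcam, 1 of 5 epithelial genes, by 1.78 ± 0.38 (edgeR adjusted p = 0.00134 and 0.0136), and the mesothelial score went from 0.175 and 0.254 in con to 1.57 and 1.18 in Lt. The macrophage score was 5.90 and 5.34 in con and 6.60 and 7.10 in Lt, and the part of these cells in the rise of the fibroblast genes was not tested.

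The next steps followed growth within the tumor series. From Lt to Mt, with Mt averaged over its 3 groups, none of the 10 genes was called, and none of all genes tested either (0% higher and 0% lower). For the 10 genes a median log2 fold change of 0.62 was seen. Thbs1 had the largest change, 1.62 ± 0.52, with an unadjusted p of 0.0117 and an edgeR adjusted p of 0.214. With 1 sample left out its change was 1.01 to 2.80. The median of the 10 genes was 0.32 without Lt replicate 1 and 1.03 without Lt replicate 2. Pdgfra, at 0.95 ± 0.31, was the only other member with an unadjusted p under 0.05, a level that 9.95% of all genes reached as higher and 9.15% as lower. DESeq2 called 1 member, Thbs1, and over all genes 132 higher and 108 lower.

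From Mt to Ht, 2 of the 10 rose and none fell, against a background of 1.5% called higher and 13.4% called lower. These were Fap and Pdgfra, the protease and the receptor. Fap ranged from 2.67 to 11.3 CPM with a median of 6.31 over the 6 Mt samples, and had 18.3 and 14.2 CPM in Ht. Pdgfra ranged from 61.6 to 156 CPM with a median of 99.9 in Mt, and had 213 and 211 CPM in Ht. For both genes the Ht samples stood above all 6 Mt samples. The log2 fold changes were 1.32 ± 0.39 for Fap (edgeR adjusted p = 0.0413) and 1.07 ± 0.28 for Pdgfra (edgeR adjusted p = 0.0269). Both calls were lost when Mt was 1 group of 6 (edgeR adjusted p = 0.105 and 0.086), or when either Ht sample or replicate 1 of Mt1, Mt2 or Mt3 was left out, and the Fap call alone without the third Ht library (edgeR adjusted p = 0.0508). Over all genes, where 257 were called higher and 2306 lower, none was called in either direction without either Ht sample, 30 were called higher with Mt as 1 group, and 87 to 152 without those Mt replicates. Total-count scaling, under which the median over all genes moved from 0.00 to 0.55 and the calls over all genes from 257 higher and 2306 lower to 2587 higher and 1773 lower, called 4 members higher, Sparc and Thbs1 besides.

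The other members were not called between Mt and Ht. Thbs1 spanned 114 to 439 CPM in Mt and had 492 and 506 CPM in Ht, where 492 is the sample summed from 2 libraries. Scaled by total counts alone, Thbs1 had 592 and 906 CPM in these libraries and 757 CPM in the other Ht sample. The lowest of these was under Mt1 replicate 2, at 599 CPM on the same scale. Between Mt and Ht, Thbs1 had a log2 fold change of 1.10 ± 0.44 (edgeR adjusted p = 0.0945). It lay close to the threshold, and was also called with the replicate block (1.16, edgeR adjusted p = 0.0494), with DESeq2 (adjusted p = 0.0498), with no low-count filter (edgeR adjusted p = 7.485e-06), with Ht as 3 libraries (edgeR adjusted p = 0.044) and without Mt2 replicate 2 (edgeR adjusted p = 0.043). Sparc spanned 401 to 1145 CPM in Mt and had 1310 and 1137 CPM in Ht, so that these groups overlapped. Fn1, at -0.68 ± 0.29, was not called (edgeR adjusted p = 0.119). In the same step all 8 hepatocyte genes, 4 of 7 stellate cell genes and 3 of 8 endothelial genes fell, with list medians of -4.21, -1.45 and -0.70 on the log2 scale, while the mesothelial gene Msln and Flnc rose. Their part in the values of the fibroblast genes was not tested.

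Postn, Lum, Lox and Tnc had their highest tissue level not in Ht but in Mt1 replicate 2. Lox reached 44.2 CPM there, against 11.4 CPM in Mt1 replicate 1 and 16.4 and 19.1 CPM in Ht. Postn reached 93.6 CPM there, against 34.4 CPM in the other Mt1 sample and 53.6 and 49.8 CPM in Ht. In Mt2, replicate 2 was likewise higher than replicate 1 for 9 of the 10 genes, Fn1 being the exception. The hepatocyte score moved with this split, at 10.5 and 10.7 in replicate 2 of Mt1 and Mt2 and 12.1 and 12.4 in replicate 1; its part in the difference was not tested.

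**Figure D2:**
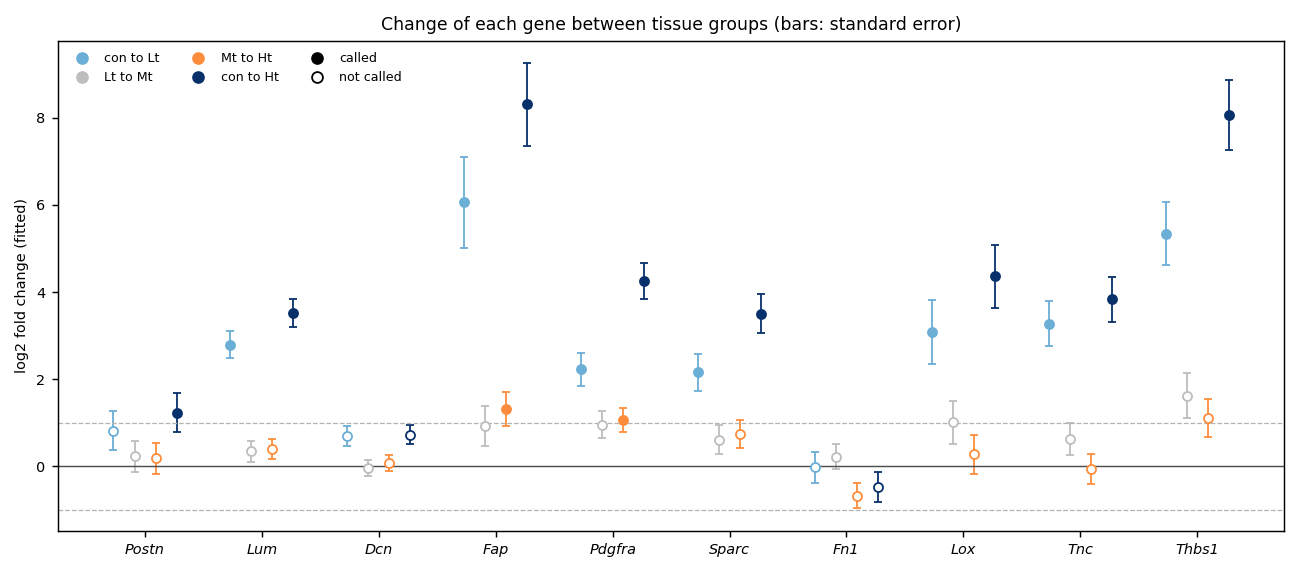
Fitted log2 fold change of each gene in 4 comparisons of tissue groups, with the standard error; filled points were called and the dashed lines mark the threshold of 1. Each of the 7 genes called from con to Lt changed more in that comparison than any of the 10 did from Lt to Mt or from Mt to Ht, and the Fap values against con are fits to a group with 0 and 1 reads.

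The whole course, con to Ht, had 8 of the 10 genes called higher and none lower. Their median log2 fold change was 3.68 (3.68 also with Fap at its bound), against 0.09 over all genes tested. The background here was high, with 25.8% of genes called higher and 24.1% lower. Fap had 18.3 and 14.2 CPM in Ht, and the mean of these was at least 59.3-fold above con (edgeR adjusted p = 0.000175). Thbs1 rose by 8.07 ± 0.80 on the log2 scale, to 492 and 506 CPM (edgeR adjusted p = 0.000109). Thbs1 is known as an inhibitor of angiogenesis and an activator of latent TGF-beta.

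The receptor, the cross-linking enzyme, a proteoglycan and a pair of matricellular genes followed. Lox measured 16.4 and 19.1 CPM in Ht, a change of 4.36 ± 0.72, and Pdgfra changed by 4.24 ± 0.41. Tnc changed by 3.83 ± 0.52, to 29.0 and 31.5 CPM, and Lum by 3.53 ± 0.32, to 104 and 96.0 CPM. Sparc, the most abundant per length in Ht, changed by 3.50 ± 0.44. The edgeR adjusted p of these 5 lay between 9.16e-05 and 0.00077. For each of them both Ht samples were above both con samples, but how many of all genes were separated in this way was not counted.

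Postn was the weakest call, at 1.22 ± 0.45 (edgeR adjusted p = 0.0369), and was lost when any 1 con or Ht sample, or the Ht library made identical with another, was left out. Dcn had 377 and 351 CPM in Ht and a change of 0.73 ± 0.22, which passed the adjusted p (edgeR, 0.0178) but not the threshold of 1; total-count scaling gave 1.92 and a call. Fn1 had 1302 and 1310 CPM in Ht against 1792 and 1821 CPM in con, a change of -0.49 ± 0.35 that was not called (edgeR adjusted p = 0.245). With total-count scaling its sign turned to 0.70 (edgeR adjusted p = 0.0368), while the median over all genes moved from 0.09 to 1.275 and the calls from 4437 higher and 4139 lower to 8822 higher and 2249 lower.

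Markers of other cell types moved in both directions. The mean log2(CPM + 1) of 7 hepatic stellate cell genes was 4.16 and 4.34 in con and 2.75 and 2.78 in Ht, and 4 of the 7 (Lrat, Reln, Colec11 and Ngfr) fell, with none higher. The 8 hepatocyte genes all fell, and their score was 7.79 and 8.18 in Ht. Of 5 mesothelial genes, 2 (Msln and Upk1b) rose, and the score went from 0.175 and 0.254 to 1.96 and 2.19. Of the 5 pericyte and smooth muscle genes, 1 rose (Cspg4) and 2 fell (Rgs5 and Abcc9). Of the macrophage genes 6 of 7 rose, with a score of 5.90 and 5.34 in con and 7.62 and 7.70 in Ht, and all 4 monocyte genes and 2 of 5 neutrophil genes rose too. Of 8 endothelial genes 5 fell and none rose. Lgals7, Stra6 and Flnc had 0 reads in con, and their summed level was 508 and 552 CPM in Ht. The part of these cells in the rise of the fibroblast genes was not tested.

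F4/80+ and CD11b+ cells were compared with Mt2, the tissue they came from, to see which of the genes macrophage-enriched cells carry. In each population 8 of the 10 were lower, namely all but Fn1 and Thbs1, and none was called higher. Over all genes, 25.2% of 18407 were called lower and 17.2% higher in F4/80+TAM, and 26.3% lower and 17.6% higher in CD11b+TAM. Their median change was -3.46 (log2) for F4/80+ cells and -4.55 for CD11b+ cells, beside -0.12 and -0.08 over all genes. Tissue and sorted cells were counted in separate tables, and a difference between these tables and one between the cells cannot be told apart.

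The genes of both sorting markers were above Mt2 in either population. Adgre1, which encodes F4/80, had 101 and 124 CPM in Mt2, 692 to 785 CPM in F4/80+TAM and 508 to 547 in CD11b+TAM, and Itgam, which encodes CD11b, 11.6 and 36.0 CPM in Mt2, 245 to 296 in F4/80+TAM and 350 to 439 in CD11b+TAM. Between the populations Adgre1 differed by 0.42 on the log2 scale and was not called (edgeR adjusted p = 0.427).

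Lum had 61.3 and 104 CPM in Mt2, 2.12, 3.0 and 3.60 CPM in F4/80+TAM and 1.85, 1.57 and 3.08 CPM in CD11b+TAM. The sorted libraries were all far below the tissue, and the log2 fold changes were -4.83 ± 0.32 and -5.27 ± 0.33 (edgeR adjusted p = 1.05e-07 and 4.12e-08). Dcn, 1 of the most abundant in Mt2 with 306 and 345 CPM, changed by -4.22 and -5.07 on the log2 scale. Lox was at 0 to 13 reads in the 6 sorted libraries. As a share of the Mt2 mean, the 8 genes kept 2.33% to 17.5% in F4/80+TAM and 1.32% to 18.1% in CD11b+TAM, with Lox lowest and Fap highest by mean in both. In CD11b+TAM Lox rested on 3, 10 and 0 reads, so that its place below Postn, at 1.52%, is not settled.

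Fap kept 2.07, 1.67 and 0.839 CPM in F4/80+TAM and 1.71, 2.29 and 0.755 CPM in CD11b+TAM, against 6.18 and 11.3 CPM in Mt2. Its log2 fold changes of -2.52 ± 0.52 and -2.45 ± 0.52 were the smallest of the 8 in either population (edgeR adjusted p = 0.000924 and 0.00105). Markers of other cells were also carried. Lgals7, Stra6 and Flnc kept 16.1% of their summed Mt2 level in F4/80+TAM and 8.97% in CD11b+TAM. Stellate cell genes, 7 in number, kept 1.83% and 2.86%, with 2 to 5 of the 7 at or under 3 reads in each sorted library, and the 8 hepatocyte genes kept 0.393% and 0.211%. Endothelial genes, 8 in number, kept 80.0% of their summed level in F4/80+TAM and 38.4% in CD11b+TAM. In F4/80+TAM 4 of these 8 were called lower, while Cdh5 and Stab2 changed by -0.13 and -0.34 and were not called. Their part in the sorted levels of the fibroblast genes was not tested.

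Thbs1 and Fn1 were not called in either population, and they differed in direction. Thbs1 had 222 and 434 CPM in Mt2, 1367, 573 and 819 CPM in F4/80+TAM and 1021, 1419 and 311 CPM in CD11b+TAM. All 3 F4/80+ libraries, and 2 of the 3 CD11b+ libraries, were above both Mt2 samples. Its log2 fold changes, 1.49 ± 0.63 and 1.48 ± 0.63, missed the threshold (edgeR adjusted p = 0.0599 and 0.0591); DESeq2, no low-count filter and the replicate block called it higher in both, and a fit of only the groups compared called it in F4/80+TAM, as did leaving out F4/80+ replicate 2 (1.78, edgeR adjusted p = 0.0443). Per length, Thbs1 had the highest mean of the 10 in both populations, at 151 ± 66.9 FPKM in F4/80+TAM and 151 ± 92.5 FPKM in CD11b+TAM (SD, n = 3). In F4/80+TAM it lay above Fn1 in range, whereas in CD11b+TAM it overlapped Fn1, which had 127 ± 115 FPKM. Platelets are a known source of thrombospondin-1; the score of 5 platelet and megakaryocyte genes was 0.528 to 0.63 in F4/80+TAM and 0.553 to 1.08 in CD11b+TAM, against 0.732 and 0.759 in Mt2, and its part was not tested.

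Fn1 had 2542 and 1546 CPM in Mt2, 657, 696 and 1030 CPM in F4/80+TAM and 1326, 2907 and 223 CPM in CD11b+TAM. The F4/80+ libraries were all below Mt2, whereas the CD11b+ libraries spread 13-fold around it. Neither change was called, at -1.36 ± 0.63 and -0.46 ± 0.63 (edgeR adjusted p = 0.0795 and 0.551). From Mt2 to F4/80+TAM, where Fn1 had 38.9% of the Mt2 mean, 3 alternatives called it lower, namely DESeq2 (adjusted p = 0.0438), no low-count filter (edgeR adjusted p = 0.000339) and a fit of only the groups compared (edgeR adjusted p = 0.0139). CD11b+ replicate 3, the lowest for Fn1, was also the lowest for Thbs1 and had the highest score of 5 neutrophil genes, 8.43, against 7.15 in each of the other CD11b+ libraries and 2.48 to 5.59 in F4/80+TAM; the part of this difference was not tested. Without that library the Fn1 change was 0.05, and the Thbs1 change was 1.90 and called (edgeR adjusted p = 0.0135).

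**Figure D3:**
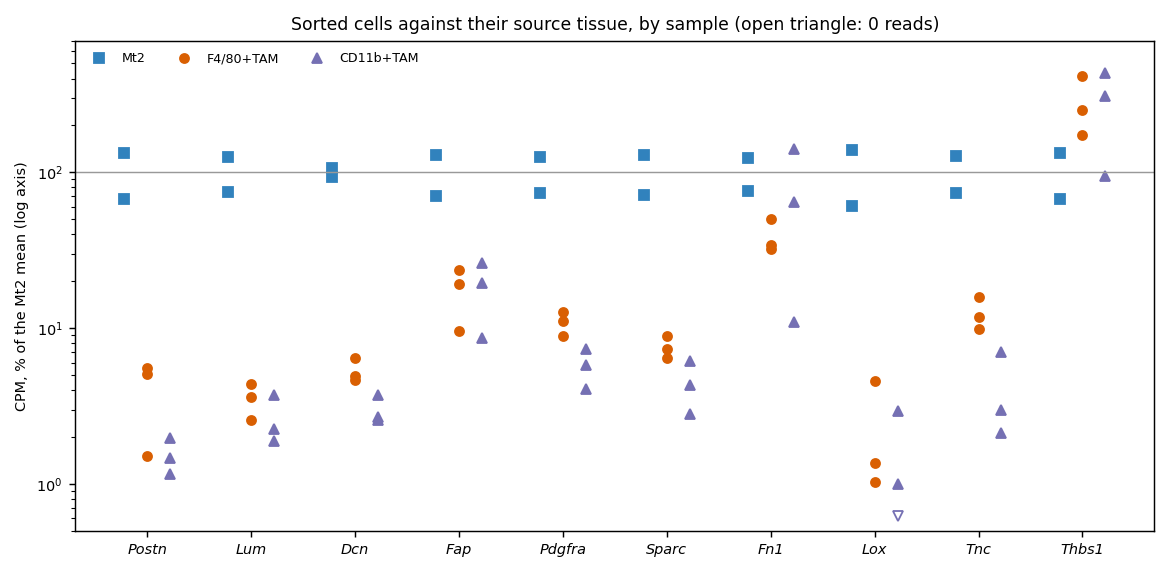
CPM of each gene in Mt2 (squares), F4/80+TAM (circles) and CD11b+TAM (triangles) as a percentage of its Mt2 mean, on a log axis; each point is 1 sample. Postn, Lum, Dcn, Fap, Pdgfra, Sparc, Lox and Tnc lie below the Mt2 samples in every sorted library, while Thbs1 lies near or above them and Fn1 spreads widely in CD11b+TAM.

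Between both sorted populations no member was called, with 9 of the 10 tested and Lox under the count filter. The background was 0.00701% of 14263 genes higher and 0.0701% lower in F4/80+TAM. Dcn, with 15.2, 16.1 and 20.9 CPM in F4/80+TAM and 12.0, 8.72 and 8.30 CPM in CD11b+TAM, had a log2 fold change of 0.79 ± 0.21 (edgeR adjusted p = 0.262). Tnc had 3.79, 4.52 and 6.02 CPM against 1.14, 2.67 and 0.813 CPM, a change of 1.56 ± 0.45 (edgeR adjusted p = 0.305) that DESeq2 called. At an unadjusted p under 0.05, 5 of the 9 were higher in F4/80+TAM (Postn, Dcn, Pdgfra, Sparc and Tnc) and none lower, beside 4.89% of all 14263 genes higher and 5.64% lower at that level.

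Values of 63 other fibroblast and matrix genes in 12 families put these values in context. Of 60 tested from con to Lt, 27 rose and none fell, with a median log2 fold change of 1.69, and from con to Ht 41 rose and 7 fell, with a median of 2.46. From Lt to Mt none of the 60 was called by edgeR or DESeq2 (11 higher and 3 lower at an unadjusted p under 0.05 by edgeR), and from Mt to Ht 3 rose and 5 fell. All 5 fibrillar collagens rose from con to Lt and from con to Ht, and none was called from Lt to Mt or from Mt to Ht. Col1a1, the main chain of type I collagen and chosen after its values were seen, went from 17.4 and 6.99 CPM in con to 145 and 344 CPM in Lt and 979 and 898 CPM in Ht. Among other fibroblast genes 11 of 12 rose from con to Ht. Grem1, a secreted BMP antagonist that was also among the genes earlier named as tumor-specific, had no read in con. It had 73.9 and 75.7 CPM in Ht, and the mean of these was at least 272-fold higher. Timp1, an inhibitor of matrix metalloproteinases, and Pdpn, a membrane glycoprotein, rose by 6.88 ± 0.88 and 6.84 ± 0.81 (edgeR adjusted p = 0.000267 and 0.000202).

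Relatives of the members did not all move alike. Aspn, a small proteoglycan related to Dcn, rose by 7.77 ± 0.69 from con to Ht (edgeR adjusted p = 9.16e-05), and Ogn, of the same family, by 2.01 ± 0.39 from Mt to Ht (edgeR adjusted p = 0.0113). The protease Dpp4, related to Fap, fell by 4.32 from con to Ht, from 205 and 201 CPM to 8.16 and 12.5 CPM (edgeR adjusted p = 0.00028). Smoc1, of the SPARC family, fell by 5.17 and the chemokine Cxcl12 fell by 3.88 (edgeR adjusted p = 0.000451 and 0.000226). Of the 10 matrix receptors, 5 rose and 2 fell, Cd36 and Sdc4.

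In sorted cells 42 of 61 related genes were lower in F4/80+TAM and 43 in CD11b+TAM, and 4 were higher in each. Tgfbi, a fasciclin-domain relative of Postn, rose by 3.31 ± 0.30 and 3.16 ± 0.30, from 201 and 334 CPM in Mt2 to 2144, 2987 and 2824 CPM in F4/80+TAM (edgeR adjusted p = 7.4e-07 and 8.13e-07). Pdgfb, a growth factor of the PDGF system, rose by 2.59 ± 0.37 and 2.20 ± 0.36, and the integrin subunit Itgb5 by 2.16 ± 0.19 and 1.91 ± 0.19 (edgeR adjusted p = 3.83e-05, 0.000127, 5.54e-07 and 1.14e-06). The fourth, named after its value was seen, was Comp, which had 0 and 2 reads in Mt2 and 15 to 44 in the sorted libraries. Thbs2 and Thbs3, of the thrombospondin family and likewise named after their values were seen, were lower in both populations, at -3.38 ± 0.48 and -2.65 ± 0.41 in F4/80+TAM (edgeR adjusted p = 3.93e-05 and 8.56e-05).

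**Figure D4:**
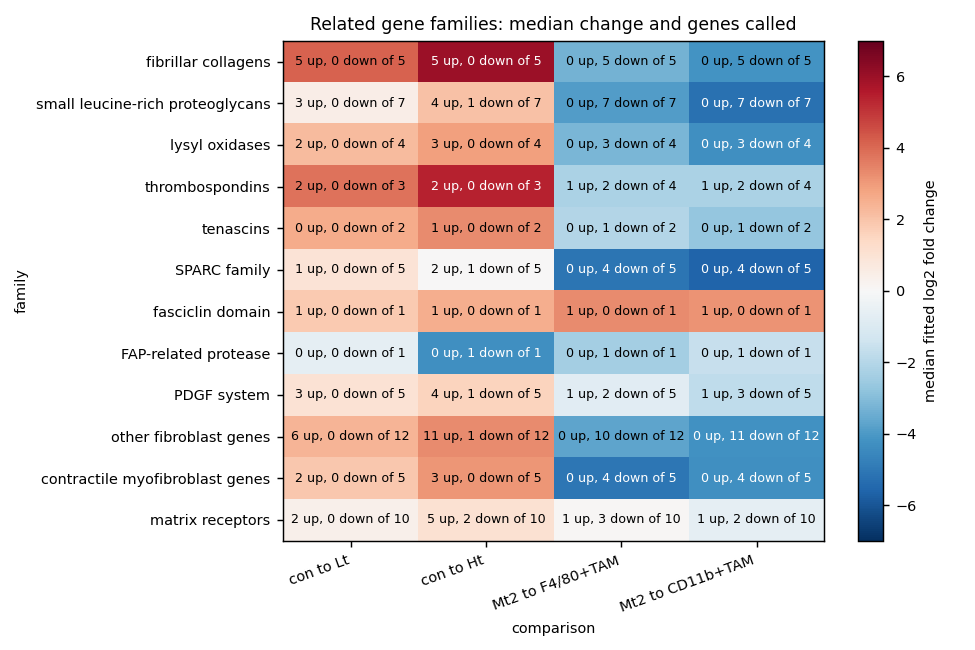
Median fitted log2 fold change (color) in 12 families of related genes for 4 comparisons, with the number of genes called higher and lower of those tested. Collagens and other fibroblast genes are red against con and blue in sorted cells, whereas the fasciclin-domain gene Tgfbi is red in all 4.

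Across the 13 tissue samples correlation set Fn1 apart from the other members, although these did not share 1 course over the groups. Dcn had means of 351 CPM in Lt and 364 CPM in Ht, and Pdgfra 51.5 and 212 CPM. Without Fn1, the 36 pairs of members had Pearson correlations of log2(CPM + 1) from 0.747 to 0.99, with a median of 0.933, and the 9 pairs with Fn1 had -0.523 to -0.195. These points share their libraries and the tumor content of each piece, and the spread of correlations over all gene pairs was not computed. Of 12591 genes, those most like Postn included Ccdc80 (r = 0.943) and Lox, and those most like Lum were Grem1 (r = 0.991), Il1rl1 and Pbk. Tnc was closest to Ptgs2 (r = 0.99), Timp1 and Has2, and Lox to Ahnak2 (r = 0.985), Lgi2 and Col1a2. Sparc was closest to Cavin3 (r = 0.998), Arpc1b and P3h3, and Thbs1 to Sema5a (r = 0.998), Slit2 and Fscn1. Pdgfra was closest to Trim35 (r = 0.999), Tspan5 and Cdkn2c, Fap to Cdca4 (r = 0.996), Rgs17 and P4ha1, and Dcn to Ly6e (r = 0.962), Ifitm1 and Ostf1. Fn1 was closest to Ibtk (r = 0.938), Cyyr1 and Slc41a2.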

How the data were processed

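The deposited tables held whole-number counts per gene, which the authors made with CASAVA, HISAT2 2.0.5 and featureCounts 1.5.0-p3 (GRCm38/mm10, per the labels). No library in them was normalized. RNA libraries were made with the NEBNext Ultra RNA kit. Total counts were 16032085 to 18246623 in 14 tissue libraries and 17785496 to 20548370 in 6 sorted-cell libraries. Values after ± are the SD between samples or the SE of the fit. The SE was taken as the absolute log2 fold change over the square root of the test's F value. Floors cover counting error only. A floor was 3 reads. The second table carries no gene names and was joined to the first by gene ID.

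The methods say that Ht libraries 1 and 3 were made identical; these were added up, leaving 13 tissue samples; they differed by more than sampling noise (chi-square per degree of freedom 27.6, against 26.7 and 12.1 for the other Ht pairs). edgeR 4.0.16 (R 4.3.3) fitted counts with TMM factors, filterByExpr and the quasi-likelihood test on 13 tissue samples, on 6 sorted samples and, for Mt2 against sorted cells, on all 19. Benjamini-Hochberg adjustment ran over all genes tested, in 7 comparisons, and calls needed an adjusted p no higher than 0.05 and a log2 change of 1 or more in size. CPM were TMM-scaled over the 19 samples. The methods speak of biological replicates for tissue, and no source used here says that the sorted libraries came from separate animals, so their p-values measure the spread between these samples, which may be technical. Members, related genes and marker lists were chosen with earlier results of these data known. Related genes were named where called, without overlap between the groups, at a mean log2 CPM of at least 1, up to the 4 largest changes in each direction; genes named as alike were the 3 with the highest correlation, 1 of which is not reported here. Col1a1, Thbs2, Thbs3, Comp, Cdh5 and Stab2 are named outside this rule. DESeq2 1.42.0, other scalings, no filter, the replicate block and single samples left out were the alternatives, and the procedure was tested on simulated data. Lox has no sequence shown here.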

Additional observations from a re-analysis of the deposited data

Results flagged for a closer look

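The L-con library, 1 sample of tumor-free liver at day 12 that entered no test, carried 4 of the 10 genes at over double the higher con level. How many of all genes did so was not counted. Lum had 25.7 CPM against at most 9.66 CPM in con, Tnc 5.27 against 2.11, and Thbs1 11.2 against 2.38. Fap had 11 reads, or 0.95 CPM, against 1 and 0 reads in con. All 4 were below both Lt samples. The other 6 genes lay between 0.73 and 1.42 times the higher con sample, and Lgals7, Stra6 and Flnc, earlier named as tumor-specific, summed to 18.7 CPM in L-con and to 0 in con. The monocyte score was 3.41 in L-con against 1.70 and 1.29 in con, and the macrophage score 6.63 against 5.90 and 5.34; the part of these cells in the L-con values was not tested. With 1 library there is no replicate check.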

How the results depend on the processing

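Over the 10 genes and 7 comparisons, 443 of 475 values from alternatives that kept every sample, and 355 of 394 from leaving out 1 sample, kept their direction and side of the threshold. Leaving out 1 sample gave 2 to 7 members and 16 to 23 related genes called from con to Lt, 0 to 2 related genes from Lt to Mt, and 0 to 3 members and 0 to 13 related genes from Mt to Ht; the lowest counts came without con replicate 2 from con to Lt, and without either Ht sample from Mt to Ht, where none of all genes was called either. From Lt to Mt, DESeq2 called 1 member (Thbs1; over all genes 132 higher and 108 lower, against none by edgeR), no low-count filter called 2 members (Thbs1 and Lox) and 4 related genes (over all genes 337 and 550), and leaving out Mt2 replicate 1 called no member (over all genes 171 and 607). From Mt to Ht the member count was 4 with total-count scaling, 0 with Mt as 1 group of 6 and 1 (Pdgfra) without the third Ht library, and the related count, 8 in the main fit, was 25 with total-count scaling and 13 with no low-count filter. Between the sorted populations DESeq2 called 1 member (Tnc) and 1 related gene, and 133 genes higher and 167 lower over all, against 1 and 10 by edgeR. Signs turned with total-count scaling for Fn1 from con to Lt (0.26) and con to Ht (0.70), Dcn from Lt to Mt (0.32) and Tnc from Mt to Ht (0.43), and with no low-count filter for Dcn (0.0013) and Tnc (0.016) in those same steps; none of these was called. Samples left out turned the sign of Fn1 from con to Lt (-0.11 to 0.033) and from Mt2 to CD11b+TAM (-1.37 to 0.052), Postn (-0.069 to 0.41) and Dcn (-0.10 to 0.028) from Lt to Mt, Tnc from Mt to Ht (-0.23 to 0.19), and Fap (-0.43 to 0.24) and Thbs1 (-0.45 to 0.42) between the sorted populations. The cause of these shifts was not tested.

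Same replicate numbers went together in part: correlations of same-numbered deviations were 0.137 to 0.525 in all 6 pairs among Lt, Mt3, Mt2 and Mt1, -0.249 to -0.0425 in the 9 pairs with con or Ht, and -0.121 to 0.0139 in sorted cells. The replicate block gave no call from Lt to Mt among members or all genes. It gave 7 members called from con to Lt (over all genes 2229 higher and 108 lower, against 2133 and 44 without the block), 3 from Mt to Ht (Fap, Pdgfra and Thbs1; 438 and 2397, against 257 and 2306 without the block), 8 from con to Ht (4457 and 4146) and 9 in each sorted population against Mt2 (3181 and 4417 in F4/80+TAM, 3085 and 4657 in CD11b+TAM), and it turned Thbs1 between the sorted populations to 0.14, uncalled. Exchanging the numbers of Lt, chosen after seeing the data, left 7 members and 28 related genes called from con to Lt. Over all genes this gave 1919 higher and 37 lower, against 2133 and 44 without the block.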
